A study of Mus musculus with 4 samples.

Results

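The EGF-family ligands, the ERBB receptors and the feedback inhibitor gene Errfi1 were described in 4T07 cells, a line from a mouse mammary carcinoma of the Balb/cfC3H strain. The members were the 10 rows of the deposited expression table whose symbol was Tgfa, Areg, Hbegf, Btc, Egf, Ereg, Erbb2, Erbb3, Egfr or Errfi1, out of 24421 genes. They comprised 6 ligands, 3 receptors and 1 inhibitor. Polyadenylated RNA was sequenced from 2 libraries labelled as Six2 overexpression and 2 labelled control, all from subconfluent cells collected 48 hours after plating. Both groups were untreated cells of the same line, strain and medium. Nothing in the sources used here gives the vector, the promoter driving Six2 or whether the cells were 1 clone. Values are RPKM, the reads of a gene scaled to its length and to the read total of its library.

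Ligands of the EGF family are made as membrane-anchored precursors that metalloproteases of the ADAM family release from the cell surface. Tgfa, Areg and Egf products bind the receptor EGFR, and those of Hbegf, Btc and Ereg bind EGFR and ERBB4. ERBB2 has no known ligand and acts as the partner of other ERBB receptors. ERBB3 binds some neuregulins and has little kinase activity of its own. Errfi1 encodes MIG6, which binds active ERBB receptors and blocks their kinase domains. In the mammary gland, amphiregulin acts between epithelium and stroma during duct growth.

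The read totals behind the values lay between 41881864 and 81524250, the highest in Six2 replicate 2, so a single read, on a gene 1 kb long, came to between 0.0123 and 0.0239 RPKM. Six2 itself, the gene that checks the labels, was listed at 0.0285 RPKM in Six2 replicate 1, at 0 in Six2 replicate 2 and at 0 in both control libraries. No overexpression of Six2 was thus seen in these values. Whether reads of an introduced Six2 sequence would have been counted on this gene is unknown, so the groups are called by their labels. The 9 epithelial markers summed to 1665 and 998 RPKM in Six2 replicates 1 and 2, against 1897 and 1239 RPKM in control replicates 1 and 2, nearly all from Krt8 and Krt18. Of the 5 tested, 1 passed between the groups by limma-trend, the keratin gene Krt7, with 0.467 and 0.634 RPKM in Six2 replicates 1 and 2, against 10.8 and 8.67 RPKM in control replicates 1 and 2 (adjusted p = 0.0397). Krt7 entered the test through the control libraries alone and was named after its values were seen. Cdh1, the E-cadherin gene, did not pass by limma-trend (adjusted p = 0.0592). It had 0.186 and 0.103 RPKM in Six2 replicates 1 and 2, against 14.6 and 8.40 RPKM in control replicates 1 and 2. Like Krt7, Cdh1 entered the test through the control libraries alone and was named after its values were seen. The 8 mesenchymal markers summed to 1434 and 1529 RPKM in Six2 replicates 1 and 2, against 1310 and 1558 RPKM in control replicates 1 and 2, nearly all from Vim. The 8 leukocyte markers summed to at most 0.595 RPKM in the libraries labelled Six2 and 1.19 RPKM in control libraries, with Adgre1 and Tyrobp at 0 throughout. The 5 endothelial markers summed to at most 0.0366 RPKM in the libraries labelled Six2 and 0.144 RPKM in control libraries, with Kdr at 0. For the 7 basal markers the highest sums were 0.0484 RPKM in the libraries labelled Six2 and 0.804 RPKM in control libraries. The part of any of these in the differences below was not tested. In RNA from a whole dish, fewer cells of a type and less RNA per cell cannot be told apart.

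Over the 4 libraries, the mean level per gene length was highest for Errfi1, at 68.0 RPKM, followed by Areg at 39.7, Tgfa at 37.9 and Hbegf at 17.7 RPKM. Next came Erbb2 at 6.48, Btc at 2.34 and Erbb3 at 1.56 RPKM. Egf, Egfr and Ereg lay lowest, at 0.142, 0.0763 and 0.0126 RPKM. The ranges over libraries overlapped between each gene and the next in this order, except between Erbb2 and Btc and between Erbb3 and Egf. The cells thus carried abundant transcripts of 3 ligands and of the inhibitor, some Erbb2 and Erbb3, and next to none of Egfr.

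**Figure D1:**
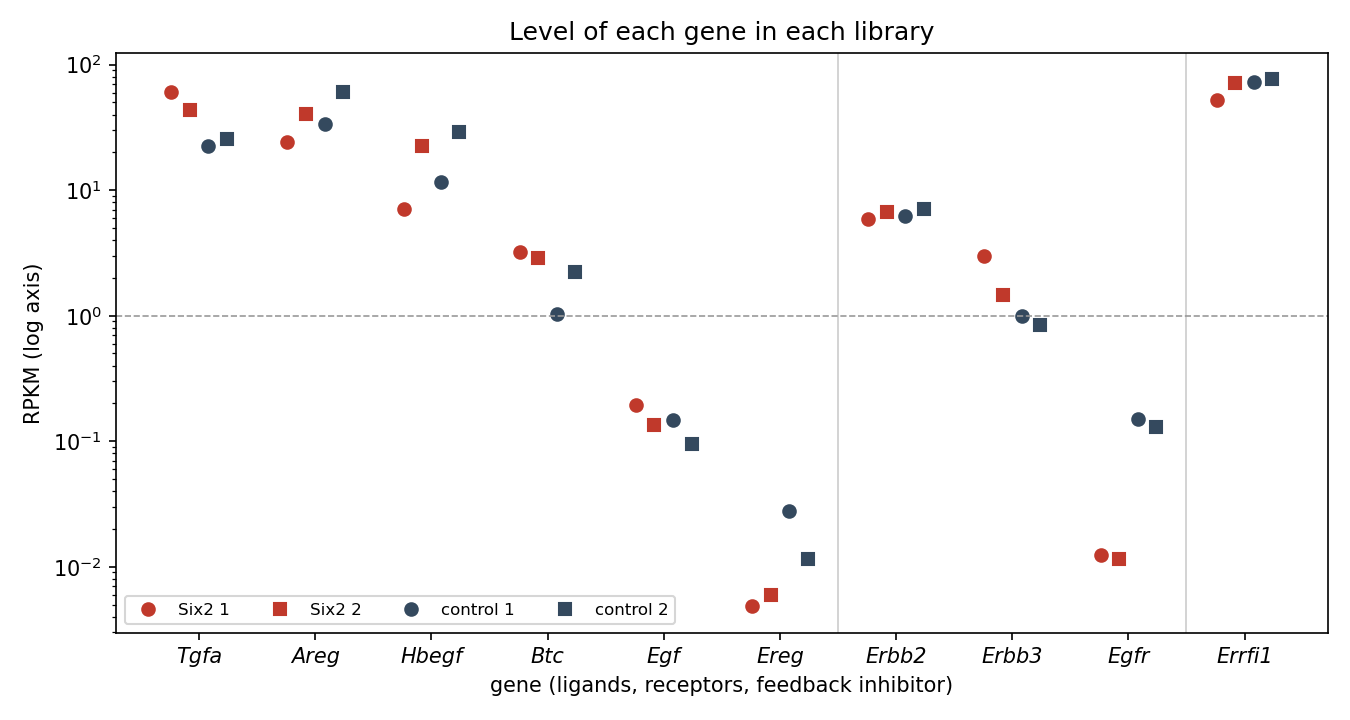
RPKM of each of the 10 genes (log axis) in each library, as red points for the libraries labelled Six2 and dark points for control libraries, with circles for replicate 1 and squares for replicate 2. The dashed line marks 1 RPKM, the level a gene had to reach in 2 libraries to be tested. Egf, Ereg and Egfr lie below it in every library.

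The genes were chosen by their RPKM values in both comparisons, Six2-labelled against control and replicate number 2 against number 1. Their differences are therefore given as descriptions, with no p-value. The labels do not say whether replicates were separate cultures, so the spread between them may be technical. A fit by limma-trend on log2(RPKM + 1) covered 10654 genes, those with 2 or more libraries at 1 RPKM or above, and included 7 of the 10 members. Erbb3 entered through the libraries labelled Six2 alone, the group in which it was higher. Of the 7, 0 passed an adjusted p of 0.05 between the groups, where 0.113% of all tested genes passed, 0.0282% as higher and 0.0845% as lower. At an unadjusted p under 0.05 the count was 1 of 7, against 17% of all tested genes, and by voom on recovered reads 0 of the 7 passed. Neither fit held a term for the replicate number. With such a term far more genes and members passed, as given in the closing section. The groups did not overlap for 3 higher members, Tgfa, Btc and Erbb3, and for 1 lower member, Errfi1. Among all tested genes 47.4% were apart, 21.9% as higher and 25.5% as lower. The median group difference of the 7 was -0.06 on the log2 scale, and that of all tested genes was -0.01. Their median absolute difference was 0.51, against 0.16 over all tested genes.

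Tgfa, which encodes transforming growth factor alpha, had 60.4 and 43.3 RPKM in Six2 replicates 1 and 2, against 22.4 and 25.4 RPKM in control replicates 1 and 2. Both libraries labelled Six2 lay above both control libraries, and replicate 1 of that group stood highest. The means were 51.8 ± 12.1 RPKM in the libraries labelled Six2 and 23.9 ± 2.11 RPKM in control libraries (SD, n = 2 each), a ratio of 2.17. On the log2(RPKM + 1) scale the difference was 1.07 (SE 0.192), and 1.90% of tested genes had a larger one in either direction. It was 0.83 without Six2 replicate 1 and 1.31 without Six2 replicate 2, the library nearer the control values. Within replicate number 1 the ratio was 2.70 and within number 2 it was 1.71. Tgfa (ENSMUSG00000029999.14) lies on chromosome 6 of GRCm38, from 86195223 to 86275719 on the plus strand.

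Areg, which encodes amphiregulin, had 24.4 and 40.3 RPKM in Six2 replicates 1 and 2, against 34.0 and 60.2 RPKM in control replicates 1 and 2. The groups overlapped, since Six2 replicate 2 lay above control replicate 1. The means were 32.3 ± 11.2 RPKM in the libraries labelled Six2 and 47.1 ± 18.5 RPKM in control libraries (SD, n = 2 each). The log2 difference between groups was -0.51 (SE 0.372), smaller than the SD of 0.534 between replicates of a group. Within each replicate number the ratio was nearly alike, 0.719 in number 1 and 0.669 in number 2. The log2 difference was -0.16 without Six2 replicate 1 and -0.11 without control replicate 2, and -0.86 and -0.92 without the other library of each group.

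Hbegf, which encodes heparin-binding EGF-like growth factor, varied most among the 4 tested ligands on the log2(RPKM + 1) scale. It had 7.08 and 22.7 RPKM in Six2 replicates 1 and 2, against 11.7 and 29.2 RPKM in control replicates 1 and 2. In both groups replicate 2 stood far above replicate 1, and the groups overlapped. The log2 difference between groups was -0.50 (SE 0.682), with an SD of 0.997 between replicates. It was 0.28 without Six2 replicate 1 and 0.13 without control replicate 2, fits in which the replicate numbers are unbalanced between groups. Within replicate number 1 the ratio was 0.607 and within number 2 it was 0.777, both lower in the libraries labelled Six2. Hbegf (ENSMUSG00000024486.6) lies on chromosome 18 of GRCm38, from 36504927 to 36515805 on the minus strand.

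Btc, which encodes betacellulin, was low, with 3.23 and 2.88 RPKM in Six2 replicates 1 and 2, against 1.04 and 2.23 RPKM in control replicates 1 and 2. The lowest library labelled Six2 lay above the highest control library. The means were 3.05 ± 0.245 RPKM in the libraries labelled Six2 and 1.64 ± 0.843 RPKM in control libraries (SD, n = 2 each), a ratio of 1.86. The log2 difference was 0.66 (SE 0.255) and was 0.32 without control replicate 1.

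Egf, which encodes the epidermal growth factor precursor, had 46 and 52 reads in Six2 replicates 1 and 2, or 0.194 and 0.134 RPKM, against 30 and 19 reads, or 0.146 and 0.0954 RPKM, in control replicates 1 and 2. The ratio of summed reads per read total was 1.29, with an exact 95% interval of 0.909 to 1.86 that covers counting error only. Ereg, which encodes epiregulin, had 1 and 2 reads in Six2 replicates 1 and 2, against 5 and 2 reads in control replicates 1 and 2. Its ratio was 0.277, with an interval of 0.0462 to 1.21. Both intervals include 1 and leave out the spread between replicates, so whether either gene differed between groups cannot be told from them. Together Egf and Ereg made up between 0.0913% and 0.252% of the summed ligand RPKM in every library.

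The sum of the ligand transcripts overlapped between groups, whereas the shares of Tgfa and Areg in it did not. The 6 ligands summed to 95.3 and 109 RPKM in Six2 replicates 1 and 2, against 69.2 and 117 RPKM in control replicates 1 and 2, so the groups overlapped. Tgfa made up 63.4% and 39.6% of that sum in Six2 replicates 1 and 2, against 32.3% and 21.7% in control replicates 1 and 2. Areg made up 25.6% and 36.9% in Six2 replicates 1 and 2, against 49.1% and 51.4% in control replicates 1 and 2. Neither share overlapped between groups. The shares of a sum depend on each other, however, and the RPKM of Areg itself overlapped between groups. Tgfa was the most abundant ligand in both libraries labelled Six2, with 2.48 and 1.07 RPKM per RPKM of Areg in replicates 1 and 2, and Areg was the most abundant in both control libraries, where the same ratio was 0.659 and 0.422. In Six2 replicate 2 the levels of both ligands were thus close. Hbegf made up 7.42% and 20.8% in Six2 replicates 1 and 2, against 16.8% and 24.9% in control replicates 1 and 2, and overlapped.

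**Figure D2:**
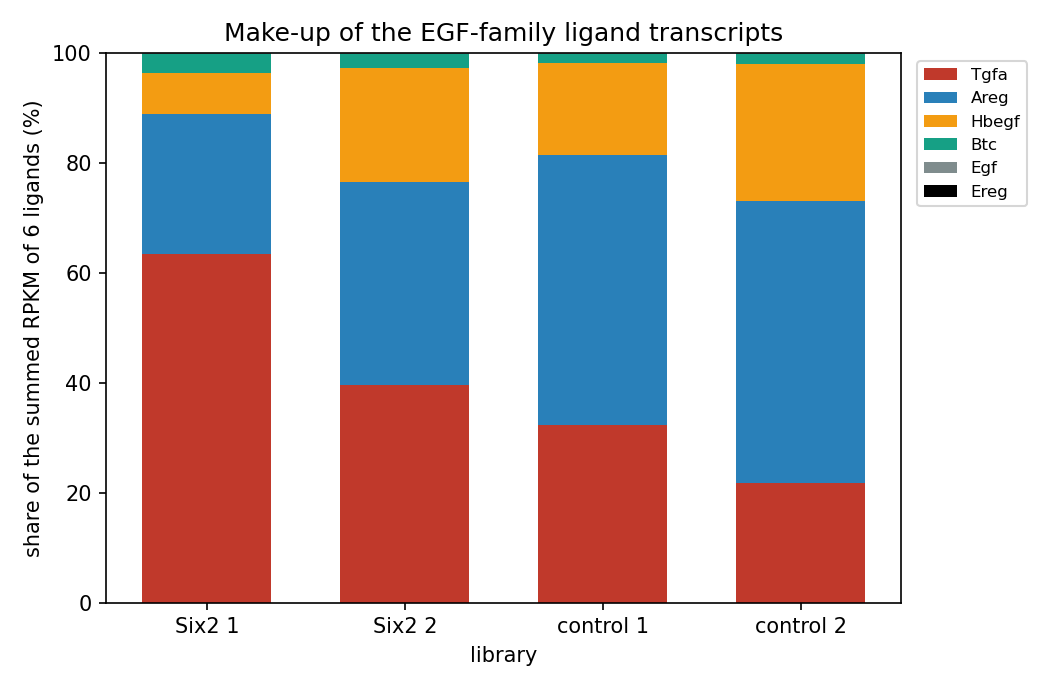
Share of each of the 6 ligand genes in their summed RPKM (%), 1 stacked bar per library, with the libraries labelled Six2 on the left and the control libraries on the right. The lowest segment, Tgfa, covers 63.4% and 39.6% in the libraries labelled Six2 and 32.3% and 21.7% in the control libraries, and Egf and Ereg are too small to see.

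Areg, Ereg and Btc lie close together on chromosome 5 of GRCm38, beside Epgn, the gene of a further EGF-family ligand, epigen. The 4 genes span 375531 bases, from 91027464 to 91402994, with Epgn, Ereg and Areg on the plus strand and Btc on the minus strand. Areg (ENSMUSG00000029378.5) runs from 91139599 to 91148432 and Btc (ENSMUSG00000082361.6) from 91357261 to 91402994. The neighbours did not share a level. Epgn had 0.0705 and 0.0864 RPKM in Six2 replicates 1 and 2, against 0.0272 and 0.112 RPKM in control replicates 1 and 2, next to Ereg near 0 and Areg at 24.4 RPKM or more in each library. Nor did Areg and Btc, both measured above 1 RPKM, differ in the same direction between groups, at -0.51 and 0.66 on the log2 scale.

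The promoters of 3 members are shown, since Tgfa had the largest group difference of the tested members on the log2(RPKM + 1) scale and Areg and Errfi1 passed the comparison of replicate numbers given further on. Each runs 5′ to 3′ on the gene's strand from 250 bases before to 50 bases after a start site in RefSeq annotation of GRCm38.p6. All 3 genes are on the plus strand. Tgfa is at chr6:86194972-86195271, Areg at chr5:91139349-91139648 and Errfi1 at chr4:150854820-150855119. Of the 2 start sites of Errfi1 in that table the one with matches is shown, a choice made after the search. Capitals mark matches, on either strand, to the cAMP response element TGACGTCA, the TATA box TATAAA and the GC box GGGCGG.
Tgfa promoter: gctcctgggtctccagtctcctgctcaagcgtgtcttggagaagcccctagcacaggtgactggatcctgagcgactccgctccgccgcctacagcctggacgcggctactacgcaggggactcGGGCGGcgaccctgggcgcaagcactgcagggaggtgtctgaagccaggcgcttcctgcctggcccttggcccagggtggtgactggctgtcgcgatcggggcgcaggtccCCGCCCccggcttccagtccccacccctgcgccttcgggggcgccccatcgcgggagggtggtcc
Areg promoter: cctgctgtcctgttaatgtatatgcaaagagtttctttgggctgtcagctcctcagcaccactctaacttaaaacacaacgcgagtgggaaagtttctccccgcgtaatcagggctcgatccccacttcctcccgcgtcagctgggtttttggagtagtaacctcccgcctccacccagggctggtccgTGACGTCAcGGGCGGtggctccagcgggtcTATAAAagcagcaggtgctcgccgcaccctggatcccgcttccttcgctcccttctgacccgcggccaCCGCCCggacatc
Errfi1 promoter: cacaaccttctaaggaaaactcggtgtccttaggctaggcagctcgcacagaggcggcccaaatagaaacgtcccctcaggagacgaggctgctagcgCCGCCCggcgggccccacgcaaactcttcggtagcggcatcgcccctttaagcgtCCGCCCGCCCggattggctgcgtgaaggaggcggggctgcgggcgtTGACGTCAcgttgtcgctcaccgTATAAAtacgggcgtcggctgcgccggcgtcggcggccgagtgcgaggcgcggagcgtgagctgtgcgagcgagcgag

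The Areg and Errfi1 windows each held the cAMP response element once, starting 61 and 51 bases before the start, and a TATA box starting 31 and 28 bases before it. The Tgfa window held neither and had 2 GC boxes. Of all 32851 promoter windows in that table, 1.79% held the cAMP response element, 13.6% the TATA box and 35.7% the GC box. Of the 10 members 7 had an entry, with 9 windows in all. Hbegf, which also passed the comparison of numbers, had no entry, nor had Ereg and Erbb3. The cAMP response element and the TATA box each matched 2 of the 9 windows, those of Areg and Errfi1 shown above, and the GC box matched 4. The AP-1 letters TGANTCA, present in 7.81% of all windows, matched 0 of those 9 windows on either strand. The letters TCAGGTT of a MEF3-type site were searched as a site of the Six2 protein family. They were present in 4.07% of all windows and also matched 0 of those 9 windows. Matching letters overlapped only between adjoining GC boxes of Errfi1. A match is only a run of letters and does not show binding.

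Among the receptors, Erbb2 was the most abundant, and it varied less than Erbb3, the other tested receptor, on the log2(RPKM + 1) scale. It had 5.92 and 6.70 RPKM in Six2 replicates 1 and 2, against 6.19 and 7.12 RPKM in control replicates 1 and 2. The groups overlapped, and the log2 difference was -0.06 (SE 0.127), within the SD of 0.117 between replicates. Its direction turned without Six2 replicate 1 (0.01) and without control replicate 2 (0.02), which leaves the numbers unbalanced, and its ratio was 0.958 within number 1 and 0.941 within number 2. The annotated span of Erbb2 (chromosome 11, 98412470 to 98437716, plus strand) overlaps Mien1 on the other strand, which had 36.4 and 29.0 RPKM in Six2 replicates 1 and 2, against 34.6 and 33.4 RPKM in control replicates 1 and 2. Whether counting used strand is unknown from the sources, so Erbb2 and Mien1 reads in the overlap may not be separable.

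Erbb3 had 2.97 and 1.45 RPKM in Six2 replicates 1 and 2, against 0.998 and 0.837 RPKM in control replicates 1 and 2. Both libraries labelled Six2 lay above both control libraries, and replicate 1 stood well above replicate 2. The means were 2.21 ± 1.07 RPKM in the libraries labelled Six2 and 0.918 ± 0.114 RPKM in control libraries (SD, n = 2 each), a ratio of 2.41. The log2 difference was 0.70 (SE 0.267), and it was 0.35 without Six2 replicate 1. Erbb3 (ENSMUSG00000018166.8) lies on chromosome 10, from 128567523 to 128589652 on the minus strand. The pseudocount of 1 shrinks a gene of this level, and with 0.1 the difference was 1.10. Per RPKM of Erbb2 there was 0.501 and 0.216 RPKM of Erbb3 in Six2 replicates 1 and 2, against 0.161 and 0.118 in control replicates 1 and 2.

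Egfr, the receptor of all 6 ligands, was near 0 in every library. It had 4 and 6 reads in Six2 replicates 1 and 2, against 42 and 35 reads in control replicates 1 and 2. As levels these were 0.0124 and 0.0114 RPKM in Six2 replicates 1 and 2, against 0.151 and 0.130 RPKM in control replicates 1 and 2, and the groups did not overlap. The ratio of summed reads per read total was 0.0840, with an exact 95% interval of 0.0387 to 0.163 that covers counting error only. Because Egfr lay below the level needed for testing, no fitted difference is given. Per RPKM of Egfr there were 476 and 586 RPKM of Erbb2 in Six2 replicates 1 and 2, against 40.9 and 54.8 in control replicates 1 and 2. Egfr (ENSMUSG00000020122.16) lies on chromosome 11, from 16752203 to 16918158 on the plus strand, and overlaps the antisense gene Egfros, which was not analysed here.

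Errfi1 had 52.0 and 71.6 RPKM in Six2 replicates 1 and 2, against 72.2 and 76.4 RPKM in control replicates 1 and 2. The groups did not overlap, but Six2 replicate 2 lay within 1 RPKM of control replicate 1. The means were 61.8 ± 13.9 RPKM in the libraries labelled Six2 and 74.3 ± 3.01 RPKM in control libraries (SD, n = 2 each), a ratio of 0.831. The log2 difference of -0.28 (SE 0.178) was -0.05 without Six2 replicate 1. Errfi1 (ENSMUSG00000028967.10) lies on chromosome 4, from 150853919 to 150868892 on the plus strand. An antisense gene overlapping it, 1700045H11Rik, was at most at 0.0207 RPKM in the libraries labelled Six2 and 0.0782 RPKM in control libraries.

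The chromosomes of the 7 tested members had median group differences between -0.09 (chromosome 6, with Tgfa) and 0.05 (chromosome 10, with Erbb3). With these medians subtracted, the differences of Tgfa, Btc and Erbb3 were 1.16, 0.70 and 0.65. All 7 had the same direction in both replicate numbers, 3 higher and 4 lower, as did 83% of tested genes.

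**Figure D3:**
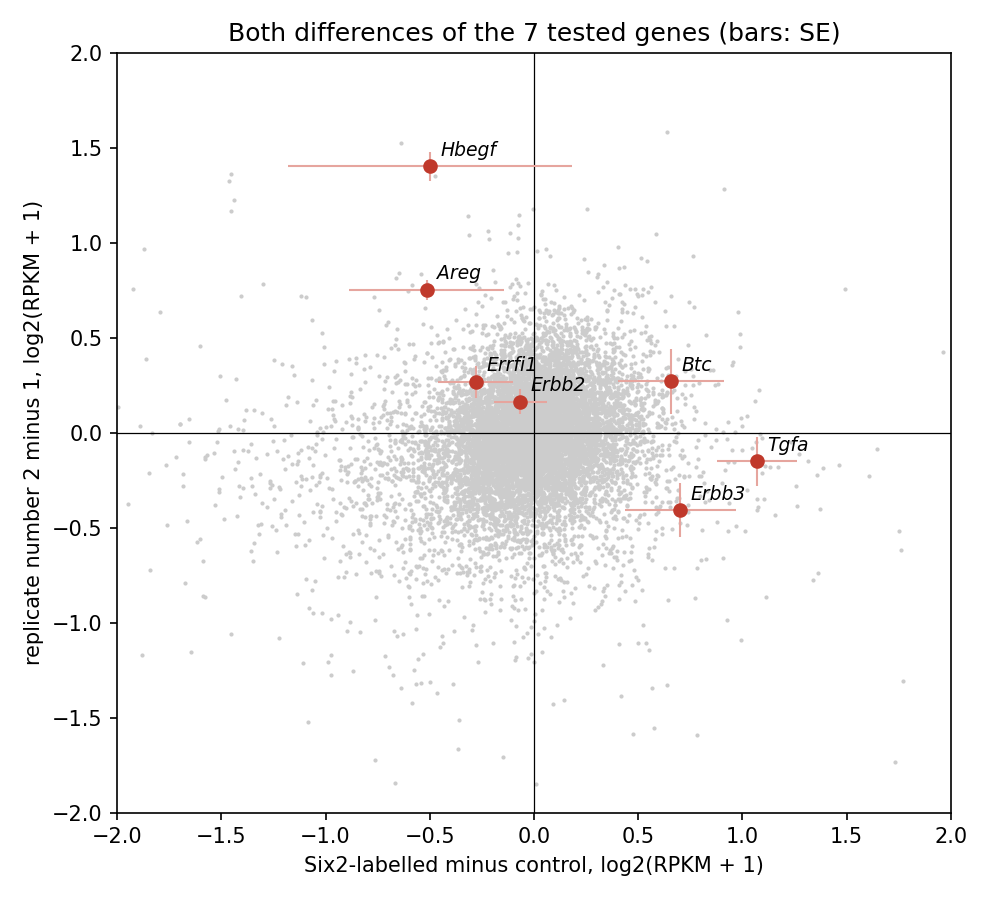
Difference Six2-labelled minus control (horizontal) and replicate number 2 minus number 1 (vertical), both in log2(RPKM + 1), for the 7 tested members (red, bars are standard errors of the fits) and all other tested genes (grey). The axes end at 2 in each direction and leave 30 genes outside. Tgfa lies far right near the horizontal axis and Hbegf high above it.

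The second comparison set the libraries numbered 2 against those numbered 1 in a model that also held the group. The labels do not say what a number stands for. A large share of all tested genes, 44.8%, passed an adjusted p of 0.05 by limma-trend, 20.7% as higher and 24.1% as lower in number 2. The group fit above held no term for the number, so this share and the 0.113% there are not like for like. With no group term 0 genes passed between numbers. Over all tested genes the median absolute log2 difference was 0.17 between numbers and 0.16 between groups. Of the 7 tested members 3 passed, all higher in number 2, namely Hbegf, Areg and Errfi1. With voom 4 passed as higher and 1, Erbb3, as lower, and Erbb3 also passed as lower with a pseudocount of 0.1. The members were chosen by these values, so the counts are descriptions and no test rests on them. At an unadjusted p under 0.05 there were 5 of 7, against 53.4% of all tested genes. The numbers did not overlap, with number 2 higher, for 3 members, Hbegf, Areg and Erbb2, and with number 2 lower for 0 members. Among all tested genes these shares were 23.6% and 24.6%. Averaged over the groups, all 5 tested epithelial markers were lower in number 2, and 4 of them passed, Krt8 and Krt18 among them. The other, Krt7, was higher in number 2 of the libraries labelled Six2, at 0.634 against 0.467 RPKM. The part of these markers in the members' values was not tested.

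Hbegf had 22.7 RPKM in number 2 against 7.08 RPKM in number 1 of the libraries labelled Six2, and 29.2 against 11.7 RPKM in control libraries. The ratios were 3.20 and 2.50, and the mean log2 difference was 1.40 (SE 0.0782). Only 0.169% of tested genes differed more between numbers. For Areg the ratio of number 2 to number 1 was 1.65 in the libraries labelled Six2 and 1.77 in control libraries, with a mean log2 difference of 0.75 (SE 0.0536), exceeded by 2.52% of tested genes. Hbegf and Areg thus differed more between numbers than between groups. For Errfi1 the same ratio was 1.38 in the libraries labelled Six2 and 1.06 in control libraries, so most of its mean difference of 0.27 (SE 0.0840) came from the libraries labelled Six2. For Erbb2 the ratio was 1.13 in the libraries labelled Six2 and 1.15 in control libraries.

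Tgfa and Btc went opposite ways in the 2 groups, as did 17% of tested genes. The ratio of number 2 to number 1 for Tgfa was 0.716 in the libraries labelled Six2 and 1.13 in control libraries. For Btc it was 0.893 in the libraries labelled Six2 and 2.15 in control libraries. Erbb3 was lower in number 2 in both groups, with ratios of 0.489 in the libraries labelled Six2 and 0.839 in control libraries. The 7 members thus had no common direction across the numbers.

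**Figure D4:**
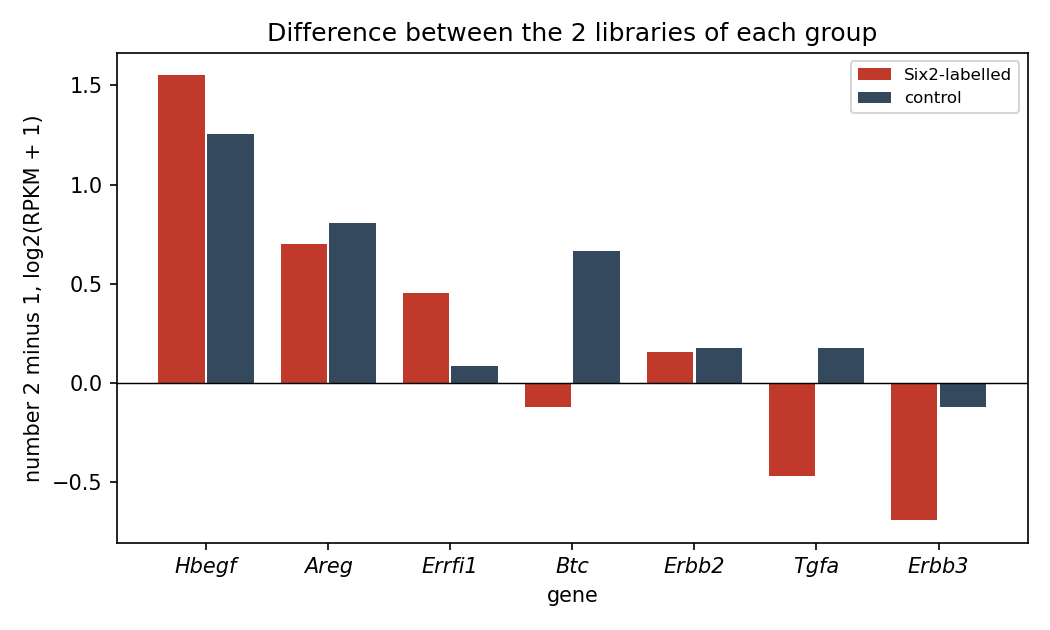
Difference between the libraries numbered 2 and 1 in log2(RPKM + 1), for each tested member, with a red bar for the libraries labelled Six2 and a dark bar for control libraries. Each bar is 1 library minus another, so it has no error. Hbegf stands at 1.55 and 1.25 and Areg at 0.70 and 0.81, whereas the bars of Btc and Tgfa point in opposite directions.

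Genes most alike to Tgfa and to Hbegf were found by the distance between their 4 log2(RPKM + 1) values, each set to its own mean. Closest to Tgfa were Mmp1a, which encodes an interstitial collagenase, Bok, a BCL2-family gene, and Psmb8, an immunoproteasome subunit gene, at distances of 0.139, 0.144 and 0.157. All 3 were higher in both libraries labelled Six2, as follows from choosing them by the pattern of Tgfa. Mmp1a had 5.94 and 4.35 RPKM in Six2 replicates 1 and 2, against 1.95 and 2.37 RPKM in control replicates 1 and 2. Close to Hbegf were the cytokine gene Il11 and the RNA gene Rmrp, at 0.151 and 0.240. Il11 had 15.7 and 42.0 RPKM in Six2 replicates 1 and 2, against 22.4 and 58.3 RPKM in control replicates 1 and 2. With 4 libraries a close match among 10654 genes describes these libraries only.

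Further genes of the pathway were taken from 5 lists with 70 genes, of which 58 were tested. Between the groups 0 of the 58 passed over all genes by limma-trend, as did 0 with voom, where 0.113% of all tested genes passed by limma-trend. Neither of these fits held a term for the replicate number. An unadjusted p under 0.05 was found for 15 of the 58 and for 17% of all tested genes. Between the numbers 28 passed, 9 higher and 19 lower, a share of 48.3% against 44.8% of all tested genes. The median group difference of the 58 was 0.02 and their median number difference -0.07.

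The other ligands included the neuregulins, of which the products of Nrg1 and Nrg2 bind ERBB3 and ERBB4. Of that list of 6, 2 were tested. Nrg1 had 2.37 ± 0.635 RPKM in the libraries labelled Six2 and 4.62 ± 0.569 RPKM in control libraries (SD, n = 2 each; log2 difference -0.74, limma-trend adjusted p = 0.182). Nrg2 had 3.84 ± 0.949 RPKM in the libraries labelled Six2 and 2.43 ± 0.150 RPKM in control libraries (log2 difference 0.49, adjusted p = 0.289). Erbb4 and Nrg3 were listed at 0 in all 4 libraries. Nrg1 was higher in the libraries numbered 2 (log2 difference 0.30, adjusted p = 0.0261).

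Of 11 sheddases and their regulators 9 were tested, and their median group difference was -0.002. Adam17, the main protease releasing Tgfa, Areg and Hbegf products, had 22.5 ± 0.461 RPKM in the libraries labelled Six2 and 17.8 ± 0.760 RPKM in control libraries (SD, n = 2 each; adjusted p = 0.226). Adam10 and Adam15, the most abundant, differed by 0.09 and 0.06 on the log2 scale. Timp3, which encodes an inhibitor of ADAM17, had 0.398 and 0.0550 RPKM in Six2 replicates 1 and 2, against 5.37 and 2.99 RPKM in control replicates 1 and 2 (log2 difference -2.05, SE 0.292, adjusted p = 0.105). Its groups did not overlap, and it entered the test through the control libraries alone. Between numbers 1 of the 9 passed as higher in number 2, Adam8 (0.70, adjusted p = 0.000959), and 4 passed as lower, set beside 20.7% and 24.1% of all tested genes. Those lower included Timp3 (-0.54), Frmd8 (-0.31) and Adam10 (-0.21).

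Of 23 adaptors and kinases 22 were tested, with 8 above 0, 14 below 0 and a median group difference of -0.06. Akt1, a kinase gene downstream of PI3-kinase, was the most abundant, with 289 ± 11.3 RPKM in the libraries labelled Six2 and 201 ± 9.52 RPKM in control libraries (SD, n = 2 each). Its log2 difference of 0.52 (SE 0.0933) did not pass (adjusted p = 0.141). Mapk3, which encodes ERK1, differed by -0.24 and the PI3-kinase regulatory subunit gene Pik3r1 by -0.42. Between numbers 2 of the 22 passed as higher and 7 as lower in number 2, against 20.7% and 24.1% of all tested genes. Hras and Nras were higher in number 2, by 0.42 and 0.18, and Stat3, Pik3r1 and Plcg1 were lower in number 2, with log2 differences of -0.71, -0.48 and -0.44.

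Of 12 receptor attenuators 9 were tested, with a median group difference of 0.08. Cblb, a ubiquitin ligase gene, had 11.3 ± 1.31 RPKM in the libraries labelled Six2 and 15.8 ± 2.55 RPKM in control libraries (SD, n = 2 each; log2 difference -0.44, adjusted p = 0.283). Socs5 differed by -0.32, Lrig1, whose product promotes degradation of ERBB receptors, by -0.23, and Sh3kbp1 by 0.20. Between numbers 1 of the 9 passed as higher in number 2, Cbl (0.29), and 2 as lower, Lrig2 and Cblb (-0.27 and -0.26); the shares of all tested genes were 20.7% and 24.1%.

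Of 18 genes induced by ERK signalling or acting in its feedback 16 were tested, with 12 above 0 and a median group difference of 0.07. Spry4, which encodes a Sprouty inhibitor of the cascade, had 9.48 and 10.1 RPKM in Six2 replicates 1 and 2, against 3.52 and 4.79 RPKM in control replicates 1 and 2. The groups did not overlap, and the log2 difference of 1.08 (SE 0.159) did not pass (limma-trend adjusted p = 0.108). Phlda1 had 94.2 ± 28.7 RPKM in the libraries labelled Six2 and 56.5 ± 9.14 RPKM in control libraries (SD, n = 2 each; adjusted p = 0.285). The abundant genes Ccnd1 and Ier3 differed by 0.009 and 0.17. Between numbers 4 of the 16 passed as higher and 6 as lower in number 2, where 20.7% and 24.1% of all tested genes did. Dusp5, a nuclear ERK phosphatase gene, had 6.24 RPKM in number 2 against 2.19 RPKM in number 1 of the libraries labelled Six2, and 6.76 against 3.03 RPKM in control libraries (log2 difference 1.06, SE 0.0867, adjusted p = 0.000245). Fosl1, an AP-1 subunit gene, had 200.2 against 103 RPKM in the libraries labelled Six2 and 155 against 92.6 RPKM in control libraries (log2 difference 0.85, SE 0.0624, adjusted p = 0.000173). Myc was higher in number 2 by 0.46. Dusp4, Phlda1 and Junb were lower in number 2, with log2 differences of -0.50, -0.48 and -0.37. Genes of this list that passed thus lay on both sides of 0.

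**Figure D5:**
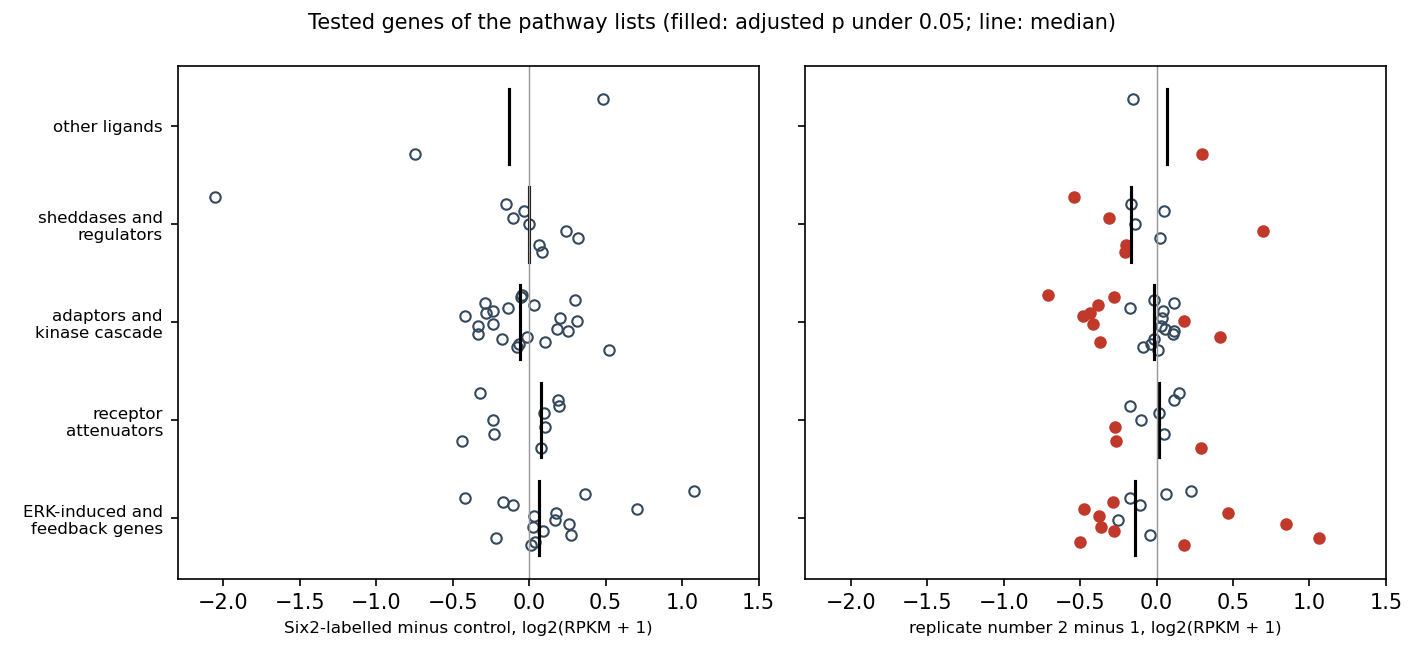
Differences in log2(RPKM + 1) of the 58 tested genes in the 5 pathway lists, Six2-labelled minus control on the left and number 2 minus number 1 on the right; each point is a gene, filled where its adjusted p was under 0.05, and the black line is the list's median. The left panel has 0 filled points and the right panel has 28.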

How the data were processed

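Per the labels' protocols, cells were lysed 48 hours after plating and TruSeq stranded mRNA libraries were made. Tools named in the submitters' processing notes, without their roles, were HTSeq 0.8.0, TopHat2 2.1.1 with Bowtie2, Picard 2.9.4, SAMtools 1.5, FastQC 0.11.5 and bcl2fastq 1.8.4, with builds mm10 and GRCm38. The authors deposited RPKM values per library. The annotation, gene lengths, strand setting and handling of shared reads were unstated in the sources used here.

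Samples were grouped by their titles. Reads and read totals were recovered from the steps between low RPKM values, with whole reads within 0.001 for all 14459 genes above 0 in at least 3 libraries. If all reads of a gene were multiples of one number, its reads would come out too low. Intervals on reads are exact binomial and, like the limit of 3 reads that a 0 allows, cover counting error only. limma 3.58.1 in R 4.3.3 fitted log2(RPKM + 1), a scale that understates the change of low genes, on group, or on group and replicate number, with 2 and 1 residual degrees of freedom. Genes needed 1 RPKM in 2 libraries. The moderated two-sided tests followed the mean-variance trend (limma-trend) and were adjusted by Benjamini-Hochberg over all 10654 genes. The fit was tested on simulated data. For the group comparison these held no difference between numbers, so they do not show how that fit treats such a difference. Members, lists and rules were chosen with earlier results of these data known.

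Named genes were the members, up to 3 passing genes of each list in each direction or, with none, the 2 most abundant and the 2 of largest difference, and the 3 nearest in pattern, some of which are not reported here. Epgn and Mien1 were added for their position, Nrg3 and Erbb4 because they were at 0, and the epithelial markers Krt7 and Cdh1 after their values were seen. Coordinates are from GENCODE annotation of GRCm38. Alternatives were another pseudocount, filters, scaling factors, voom on recovered reads, replicate number as a term and leaving out libraries.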

Additional observations from a re-analysis of the deposited data

Results flagged for a closer look

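Tgfa and Btc differed in opposite directions between the 2 libraries of each group, and this was not tested, since each group gives a single difference. For Tgfa, number 2 minus number 1 was -0.47 on the log2(RPKM + 1) scale in the libraries labelled Six2 and 0.17 in control libraries. For Btc it was -0.12 in the libraries labelled Six2 and 0.66 in control libraries. Among all tested genes 17% went opposite ways.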

How the results depend on the processing

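Between the groups, 12 genes passed over all genes. Testing every gene gave 0 (2503 at an unadjusted p under 0.05, lowest adjusted p = 0.0519). The count was 33 with a filter of 1 CPM in 2 libraries, and between 11 and 68 when 1 library was left out, highest without Six2 replicate 2. Of the tested members 0 passed, and between 0 and 1 when 1 library was left out, the 1 being Tgfa without Six2 replicate 2. Such a fit takes its spread from the other group alone and assumes that the lone library varies like it; the members were also chosen by these values, so no test rests on it. Between the numbers, 4771 genes passed, 2583 when every gene was tested and 0 with no group term (1765 at an unadjusted p under 0.05); of the members 3 passed, 5 with voom and 0 with no group term. Leaving out libraries gives no test of the number comparison, as no residual degrees of freedom remain.

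The labels do not say that replicate numbers pair libraries. Across tested genes, which are not independent replicates, the difference between the libraries labelled Six2 correlated with that between control libraries at r = 0.818. With the replicate block 4639 of the 10654 tested genes passed between groups, and 6 of the 7 tested members, Tgfa, Btc and Erbb3 higher and Areg, Hbegf and Errfi1 lower. This fit has 1 residual degree of freedom, and Erbb3 entered it through the libraries labelled Six2 alone. The members were also chosen by these values, so no test of them rests on it. Why the counts changed with the block was not tested. With a pseudocount of 0.1, 4 of the 10 member differences between groups moved by more than the SD between replicates, none changing direction. Scaling factors from relative log expression changed no direction. With 2 libraries in each group, low members such as Ereg and Egf are limited by their reads.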
